A study of Homo sapiens with 14 samples.

Results

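The HOX genes are 4 clusters of homeobox transcription factor genes, and 38 of them, of 58440 genes in the tables, were followed here through mixtures of HEK-293T and Jurkat cells. They were taken by name from the HOXA cluster (10 genes), the HOXB cluster (10 genes), the HOXC cluster (9 genes) and the HOXD cluster (9 genes). The family was chosen with the difference between the pure lines in view. Values and counts of calls of the pure lines are thus a description, with no p-value and nothing supported by them. Only the mixed libraries were tested. They hold the same 2 lines, so the direction of the family in them is not independent of that choice. The HEK-293T line was derived from embryonic kidney and is adherent, with an epithelial shape, whereas Jurkat cells come from a T cell leukemia and float freely in culture. RNA-seq was made from 14 libraries, 2 for each of 7 compositions: 100% HEK cells, mixtures with 80%, 60%, 50%, 40% and 20% HEK cells, and 0% HEK cells, which is pure Jurkat. The rest of each mixture was Jurkat cells, the total number of cells was held equal, no treatment was given, and ERCC spike-ins, which are synthetic RNAs, went into every library. The libraries of a composition are technical replicates, so their spread and every p-value measure technical error only.

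HOX proteins bind DNA through a homeodomain, mostly together with PBX and MEIS partners, and give cells their position along the head to tail axis. Genes are numbered by paralogue group from 1 to 13. Low numbers lie at the 3′ end of a cluster and are used at anterior levels, and high numbers lie at the 5′ end and are used at posterior levels. Cells keep the pattern of their origin through trithorax and Polycomb chromatin complexes. Blood progenitors also use HOX genes, mainly of the A and B clusters, and several are switched on in leukemia.

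Libraries held from 4468822 to 28303668 gene counts, the pure Jurkat libraries were the shallowest, and spike-ins took from 0.674% to 7.65% of counts. All 12 genes listed as markers of Jurkat, CD3 chains and PTPRC among them, were over 3 counts in pure Jurkat. They summed to between 3112 and 3504 CPM there (gene counts scaled to the same library total without spike-ins), against 16.0 to 20.5 CPM in pure HEK. PTPRC, which is not particular to T cells, had a mean of 1517 CPM in Jurkat. All 12 genes listed as markers of HEK, for an adherent line of epithelial shape, were over 3 counts in pure HEK. They summed to at least 337 CPM there, against 56.5 CPM or less in pure Jurkat. CDH2 and VCL, which are not particular to epithelium or kidney, held most of both sums. Their means were 108 and 120 CPM in HEK and 22.3 and 28.5 CPM in Jurkat. Gene counts per spike-in count were 147 and 97.3 in pure HEK and 12.1 and 12.3 in pure Jurkat, a 10.0-fold difference between the means. The libraries of a composition could differ widely on this scale, as with 46.6 and 123 at 80% HEK cells.

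In pure HEK, 36 of the 38 genes were over the floor of 3 counts in at least 1 library, and in pure Jurkat 18 were. All 18 seen in Jurkat were also seen in HEK, and the other 18 were over the floor in HEK alone. HOXB1, a hindbrain gene, had no count in any of the 14 libraries, and HOXD12, a limb gene, had 0.08 CPM in 1 library with 40% HEK cells and no count elsewhere. Genes at or under 3 counts in both Jurkat libraries made up 23.4% of the 22959 genes over the floor in either pure line. Of the 36 HOX genes over the floor, both HEK libraries lay above both Jurkat libraries for 29, both Jurkat libraries lay above for 2, and the libraries overlapped for the rest. Among the 22959 genes the corresponding shares were 42.9% and 24.3%. Since the family was chosen on this contrast, nothing is read from these shares.

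**Figure D1:**
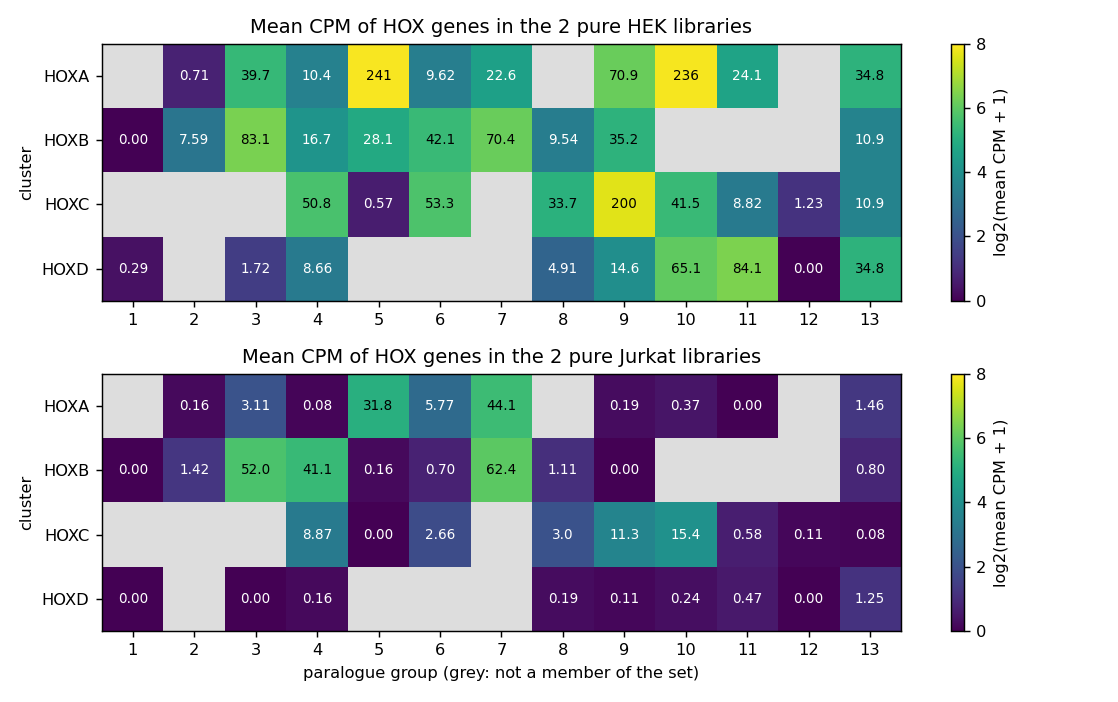
Mean CPM of each HOX gene in the 2 pure HEK libraries (top) and the 2 pure Jurkat libraries (bottom), with clusters as rows, paralogue groups as columns and colour on the log2(mean CPM + 1) scale. HEK has filled cells in all 4 rows, while in Jurkat the HOXD row stays at or below 1.25 CPM and the highest cells are HOXB7, HOXB3, HOXA7 and HOXB4.

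The HOXA cluster lies on chromosome 7 from 27100354 to 27200091 (GRCh38, minus strand). It held the 2 genes with the highest CPM in pure HEK. HOXA5, which patterns the airway and the neck and chest, had 288 and 195 CPM in the HEK libraries and 40.3 and 23.4 CPM in the Jurkat libraries, a fold of 7.59 between the means. HOXA10, a posterior gene of the uterus, limb and blood progenitors, had 233 and 238 CPM in HEK and at most 2 counts in each Jurkat library, at least 351-fold higher against the Jurkat floor of 0.671 CPM (3 counts in the shallower library). No HEK value of either gene came near a Jurkat value. HOXA9, known for its part in myeloid leukemia, was likewise at the floor in Jurkat: it had 70.4 and 71.4 CPM in HEK and 1 count in each Jurkat library, at least 106-fold higher.

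HOXA7, the gene next to HOXA9, went the other way. It had 16.6 and 28.6 CPM in HEK and 33.3 and 54.8 CPM in Jurkat, and the groups did not overlap. The HEK over Jurkat ratio was 0.513 in CPM and 4.86 per spike-in count, so which line was higher depended on the scale. HOXA6, between HOXA5 and HOXA7, had 9.43 and 9.82 CPM in HEK and 1.75 and 9.80 CPM in Jurkat, so the lines overlapped. HOXA11, a gene of the forearm and of the early kidney, had 29.8 and 18.4 CPM in HEK and no count in Jurkat, at least 35.9-fold higher. HOXA13, used at the digits and the hindmost gut, had a mean of 34.8 CPM in HEK and 1.46 CPM in Jurkat, and HOXA4 had 10.4 CPM in HEK and at most 1 count in a Jurkat library. HOXA3, needed for thymus and parathyroid, had 63.3 CPM in 1 HEK library and 16.0 CPM in the other, above 3.48 and 2.74 CPM in Jurkat. HOXA2, a gene of the facial skeleton and hindbrain, stayed under 1 CPM in all 4.

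The HOXB cluster lies on chromosome 17 from 48528526 to 48728750 (minus strand) and was the cluster in which the lines were closest. HOXB7, a central gene, had 59.4 and 81.4 CPM in HEK and 44.3 and 80.4 CPM in Jurkat. HOXB3, a hindbrain gene that blood progenitors also use, had 70.7 and 95.5 CPM in HEK and 32.9 and 71.1 CPM in Jurkat. The libraries of the lines overlapped for both genes. HOXB4, known for expanding blood stem cells, had 20.3 and 13.0 CPM in HEK and 44.1 and 38.2 CPM in Jurkat, without overlap. Its HEK over Jurkat ratio was 0.405 in CPM and 4.25 per spike-in count, so its direction too changed with the scale.

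HOXB5 and HOXB6, next to HOXB4, and HOXB9, beyond HOXB7, were near or under the floor in Jurkat. HOXB5, a central gene, had 28.7 and 27.4 CPM in HEK and at most 2 counts in a Jurkat library, at least 41.8-fold higher. HOXB6 had 41.9 and 42.3 CPM in HEK and 0.92 and 0.49 CPM in Jurkat, a fold of 59.8 that rests on about 4 and 3 counts in Jurkat. HOXB9, a thoracic gene, had 31.3 and 39.1 CPM in HEK and no count in Jurkat, at least 52.5-fold higher. The others over the floor in both lines were HOXB2, HOXB8 and HOXB13, a gene of the prostate, with HEK over Jurkat ratios of 5.34, 8.63 and 13.6. Their Jurkat libraries held no more than 8 counts each.

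The HOXC cluster lies on chromosome 12 from 53938831 to 54056030 (plus strand). HOXC9, a gene of the thoracic spinal cord, had 216 and 184 CPM in HEK and 11.9 and 10.8 CPM in Jurkat, a fold of 17.7. HOXC10, which marks lumbar motor neurons, had 33.5 and 49.5 CPM in HEK and 15.2 and 15.6 CPM in Jurkat, a fold of 2.69. The HEK libraries lay above the Jurkat libraries for both genes. HOXC4, HOXC6 and HOXC8, central genes of the neck, shoulder and chest, had HEK over Jurkat ratios of 5.72, 20.0 and 11.1. HOXC11, HOXC12 and HOXC13, a gene of hair and nail, were at or under 3 counts in each Jurkat library and had means of 8.82, 1.23 and 10.9 CPM in HEK. HOXC5 had no count in 1 HEK library and 17.3 in the other.

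The HOXD cluster lies on chromosome 2 from 176092721 to 176190907 (plus strand). HOXD11, which acts with HOXA11 in the forearm and the early kidney, had 64.1 and 104 CPM in HEK and at most 3 counts in a Jurkat library, at least 125-fold higher. HOXD10, a lumbar gene, had 60.5 and 69.6 CPM in HEK and at most 3 counts in a Jurkat library, at least 97.0-fold higher. HOXD13, a digit gene, was the only member of the cluster over the floor in Jurkat, with 4 and 10 counts there against 346 and 501 in HEK. HOXD9, HOXD4 and HOXD8 had means of 14.6, 8.66 and 4.91 CPM in HEK, HOXD3 had 1.72 CPM and HOXD1 had no count in 1 HEK library and 8.93 in the other.

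Of the 38 genes, 32 lie over another annotated gene and 24 over another on the same strand, and counts of such pairs were divided by the counting program. The annotated spans of HOXA3, HOXB3, HOXC4 and HOXC6 each cover several neighbours, HOXA9 overlaps HOXA10, HOXB7 overlaps HOXB8 and HOXB9, and HOXD10 overlaps HOXD11. Levels within these pairs are uncertain for that reason.

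The bases just before a RefSeq start site are shown for 5 genes with unlike counts that lie close together. They are HOXA6 and HOXA9 on either side of HOXA7 and 3 successive HOXD genes, and none of the stretches overlaps an annotated exon. In the annotation used for coordinates, the spans of HOXA6, HOXA9 and HOXD11 begin further upstream, so their stretches lie within the gene. HOXA6 was over the floor in both lines and HOXA9 in HEK only. HOXD11 and HOXD13 flank HOXD12, which had no count in a pure library. Sequences are the 150 bases upstream of the RefSeq start in GRCh38.p14, 5′ to 3′ on the gene's strand, with CG dinucleotides in capitals.
HOXA6, minus strand, chr7:27147775-27147924: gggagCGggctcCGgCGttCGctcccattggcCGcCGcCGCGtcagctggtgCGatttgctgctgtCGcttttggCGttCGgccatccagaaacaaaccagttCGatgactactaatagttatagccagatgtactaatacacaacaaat
HOXA9, minus strand, chr7:27165538-27165687: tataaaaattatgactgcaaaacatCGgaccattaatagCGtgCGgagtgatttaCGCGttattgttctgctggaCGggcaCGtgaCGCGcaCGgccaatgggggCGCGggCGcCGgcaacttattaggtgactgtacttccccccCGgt
HOXD11, plus strand, chr2:176107130-176107279: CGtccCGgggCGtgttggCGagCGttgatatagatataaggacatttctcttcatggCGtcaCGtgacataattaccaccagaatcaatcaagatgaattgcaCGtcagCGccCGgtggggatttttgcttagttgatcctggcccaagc
HOXD12, plus strand, chr2:176099645-176099794: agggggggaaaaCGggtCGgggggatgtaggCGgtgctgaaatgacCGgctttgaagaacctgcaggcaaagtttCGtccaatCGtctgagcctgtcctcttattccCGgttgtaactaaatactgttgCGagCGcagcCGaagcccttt
HOXD13, plus strand, chr2:176092571-176092720: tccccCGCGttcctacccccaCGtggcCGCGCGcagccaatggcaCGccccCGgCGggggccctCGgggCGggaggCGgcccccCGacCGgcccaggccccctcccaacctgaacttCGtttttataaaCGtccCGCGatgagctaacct

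These stretches hold 13 CG dinucleotides for HOXA6, 15 for HOXA9, 10 each for HOXD11 and HOXD12, and 18 for HOXD13. RefSeq windows of 300 bases (250 before the start and 50 after) were at hand for 20 of the 38 genes, 27 windows in all, of which several belong to HOXA3 and 1 is shared by HOXC4 and HOXC5. Their median was 22 CG dinucleotides, against 14 over 35116 windows of all genes, and HOXD11 had 27 and HOXD12 had 19. Among genes with a single window, the median was 29 (15 to 44) for the 5 over the floor in Jurkat. It was 23 (4 to 36) for the 11 over it in HEK only and 15 (11 to 19) for the 2 under it in both. These ranges overlapped, and the window shared by HOXC4 and HOXC5 counts in the first 2 groups. HOXB3, HOXB4, HOXB7, HOXC9 and HOXC10, all over the floor in Jurkat, had no window, so no pattern is read from the medians. Motifs were searched on both strands. CCAAT was in 66.7% of the HOX windows and 34.6% of all windows, CACGTG in 33.3% and 7.26%, TATAAA in 18.5% and 11.5%, and TGATTNAT, letters that PBX and HOX proteins can bind together, in 7.41% and 2.82%. CACGTG was within the stretches of HOXA9, HOXD11 and HOXD13, and TGATTNAT within that of HOXD11. These matches describe letters only.

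Levels between genes were compared in TPM, which divides by transcript length. In pure HEK the order was HOXC9 (310 and 258 TPM), HOXA5 (338 and 225 TPM), HOXA10 (168 and 177 TPM), HOXB7 (88.9 and 141 TPM) and HOXD11 (47.4 and 77.0 TPM). HOXB6, HOXA9, HOXD10, HOXC10 and HOXA7 followed, with means from 46.5 to 33.0 TPM. Of the 9 pairs of neighbours among these 10 genes, 6 had overlapping libraries, so HOXC9 did not differ from HOXA5 beyond their spread, nor did each gene from HOXD11 downward from the next. In pure Jurkat the order was HOXB7 (78.1 and 148 TPM), HOXA7 (50.7 and 94.6 TPM), HOXA5 (46.3 and 22.7 TPM) and HOXC9 (19.4 and 15.6 TPM), of which the first pair overlapped. HOXB3, HOXB4 and HOXC10 came next at 16.4, 10.6 and 10.5 TPM on average, with overlapping libraries. The libraries were primed with oligo-dT, so the order by CPM is given too, and it differed. By mean CPM the order was HOXA5, HOXA10, HOXC9, HOXD11 and HOXB3 in HEK, and HOXB7, HOXB3, HOXA7 and HOXB4 in Jurkat. By TPM, HOXB3 had rank 13 in HEK and rank 5 in Jurkat.

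Summed CPM of the 38 genes was 1649 and 1569 in the HEK libraries and 254 and 328 in the Jurkat libraries. HOXA5, HOXA10 and HOXC9 made up 42.1% of the sum in HEK. HOXB7, HOXB3, HOXA7 and HOXB4 made up 68.5% of the sum in Jurkat. By cluster, the HOXA sum was 690 CPM ± 99.2 (SD, n = 2) in HEK and 87.0 ± 8.10 in Jurkat, and the HOXB sum was 304 ± 28.2 and 160 ± 46.7. The HOXC sum was 401 ± 17.9 CPM in HEK and 42.1 ± 3.45 in Jurkat, and the HOXD sum was 214 ± 32.5 and 2.43 ± 0.900. HEK over Jurkat ratios were thus 7.93, 1.90, 9.53 and 88.3 for HOXA to HOXD, and 81.1, 18.8, 96.3 and 864 per spike-in count. The latter carry the 10.0-fold difference of the lines in gene counts per spike-in count. HOXA was the largest share of the sum in HEK (42.9%) and HOXB in Jurkat (54.8%).

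By paralogue group, the 16 posterior genes (groups 9 to 13) summed to 873 CPM ± 17.0 (SD, n = 2) in HEK and 32.4 ± 0.990 in Jurkat, a ratio of 26.9. The 15 central genes (groups 4 to 8) summed to 603 ± 57.5 and 202 ± 27.1 CPM, a ratio of 2.98. The 7 anterior genes (groups 1 to 3) summed to 133 ± 15.9 and 56.7 ± 26.2 CPM, a ratio of 2.35. Posterior genes were 54.3% of the HOX sum in HEK and 11.1% in Jurkat, and central genes were 69.4% in Jurkat. Sums follow the most abundant genes, and within the posterior groups 5 of the 16 genes were over the floor in Jurkat, against 10 of the 15 central genes.

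As a description only, since the choice of the family had this contrast in view, an edgeR fit of the pure libraries placed 27 of 32 HOX genes among those called higher in HEK and HOXB4 alone among those called higher in Jurkat. Over all 15794 genes tested, 24.2% were called higher in HEK and 19% higher in Jurkat, and nothing is read from the comparison of these shares. The median log2 difference (HEK minus Jurkat) was 4.24 over the HOX genes and 0.07 over all genes. Scaling by spike-ins raised the median of all genes by 3.54 and put all 32 HOX genes above 0, HOXA7, HOXB4 and HOXB7 included, while scaling by library totals raised it by 0.23 and left HOXA7 and HOXB4 below 0. All pure HEK libraries belong to 1 group of file names and all pure Jurkat libraries to the other, so line and file group cannot be told apart.

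The mixed libraries asked how each gene moved with the percentage of HEK cells over 10 libraries from 80% to 20%. They are other samples than the pure libraries but hold the same lines, and earlier results of these data were known at the choice. A family chosen with the pure lines in view may rise with HEK cells from that choice alone. The shares of rising genes below are therefore no independent support. The cluster sums of the 80% libraries lay above those of the 20% libraries for all 4 clusters. HOXA was 731 and 728 CPM at 80% HEK cells and 328 and 388 CPM at 20%. HOXB was 405 and 365 CPM at 80% and 258 and 255 CPM at 20%. HOXC was 355 and 324 CPM at 80% and 248 and 263 CPM at 20%, and HOXD was 252 and 207 CPM at 80% and 123 and 148 CPM at 20%. The HEK share of RNA, estimated by least squares from genes outside the family, ran from 65.3% to 101% over the mixed libraries, with 65.3% and 67.4% at 20% HEK cells and 87.7% and 96.0% at 80%. The highest value was of a library with 50% HEK cells, whose replicate was at 80.1%, so the share did not follow the percentage of cells at every step. Within a mixed bulk library taken by itself, fewer cells of a line and less RNA per cell cannot be told apart.

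**Figure D2:**
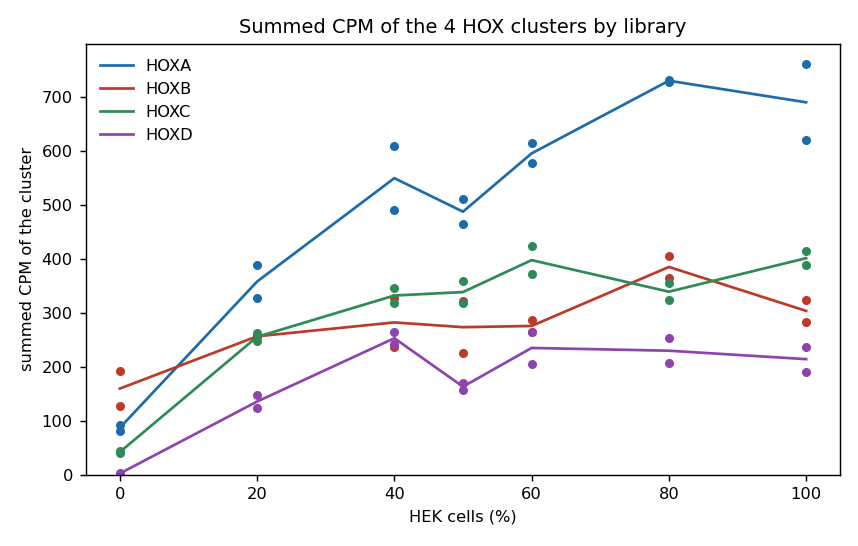
Summed CPM of each cluster in each of the 14 libraries (points) against the percentage of HEK cells, with lines through the mean of the 2 libraries of a composition. The HOXA sum goes from 81.3 and 92.8 CPM in pure Jurkat to 760 and 620 CPM in pure HEK, and the HOXB sum starts higher, at 127 and 193 CPM.

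Of 34 HOX genes with enough counts for the test, 1 rose with the percentage of HEK cells and 0 fell (edgeR's quasi-likelihood test, Benjamini-Hochberg adjustment over all 17242 genes tested). The 1 called is 2.94% of those tested, against 0.528% of all genes called rising and 5.08% called falling. At an unadjusted p under 0.05, 13 HOX genes (38.2%) were on the rising side and 0 on the falling side, against 6.30% and 11.6% of all genes. DESeq2's Wald test called 5 rising and 0 falling. Its calls over all genes were not counted, so nothing is read from these 5. The median log2 difference from 20% to 80% HEK cells was 0.52 over the HOX genes and 0.01 over all genes, with 26 above 0 and 8 below. Among the Jurkat markers 12 of 12 fell, and among the HEK markers 1 of 12 rose, YAP1. The HEK share of RNA was already 65.3% and 67.4% at 20% HEK cells, which left genes of HEK little room to rise. Few rising calls thus do not show that genes fail to follow HEK cells.

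HOXB5 was the gene called. It had 25.6 and 27.6 CPM at 80% HEK cells, 27.8 and 23.5 CPM at 60% and 17.4 and 23.0 CPM at 50%. It had 17.9 and 23.8 CPM at 40% and 14.0 and 16.4 CPM at 20%. The 80% libraries lay above both 20% libraries, the 60% libraries above both 50% libraries and the 40% libraries above both 20% libraries, while 80% overlapped 60% and 50% overlapped 40%. The log2 difference from 20% to 80% was 0.74 (SE 0.19, edgeR adjusted p = 0.0382). With the group of file names as a term it was 0.69 (SE 0.28, edgeR adjusted p = 0.268), so the call was lost. Over all 17 alternatives its adjusted p ran from 0.0012 to 0.268. In that fit HOXA9 was called rising instead (log2 2.10, SE 0.37). The 20% libraries are all in 1 group of file names and the 80% libraries all in the other. The call of HOXB5 was also lost when any 1 library with 80%, 60% or 20% HEK cells was left out.

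The other genes on the rising side at an unadjusted p under 0.05 had log2 differences from 0.57 to 1.29 and edgeR adjusted p from 0.0708 to 0.228, so that none of these 12 passed. HOXC13 had 14.5 and 16.4 CPM at 80% HEK cells and 3.97 and 6.12 CPM at 20% (log2 1.29, SE 0.38, edgeR adjusted p = 0.0708). HOXA5 had 198 and 208 CPM at 80% and 111 and 138 CPM at 20% (log2 0.73, SE 0.23, edgeR adjusted p = 0.104). HOXA10 had 251 and 270 CPM at 80% and 90.1 and 123 CPM at 20% (log2 1.00, SE 0.33, edgeR adjusted p = 0.118). In each of these genes the 2 compositions did not overlap. HOXA9 had 91.5 and 74.6 CPM at 80% and 34.3 and 38.5 CPM at 20%, and its 2 libraries with 60% HEK cells were 58.7 and 124 CPM. HOXB3, whose pure libraries overlapped, had 144 and 116 CPM at 80% and 45.4 and 52.4 CPM at 20% (log2 1.20, SE 0.39, edgeR adjusted p = 0.111). At 80% it thus lay above both pure HEK libraries.

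**Figure D3:**
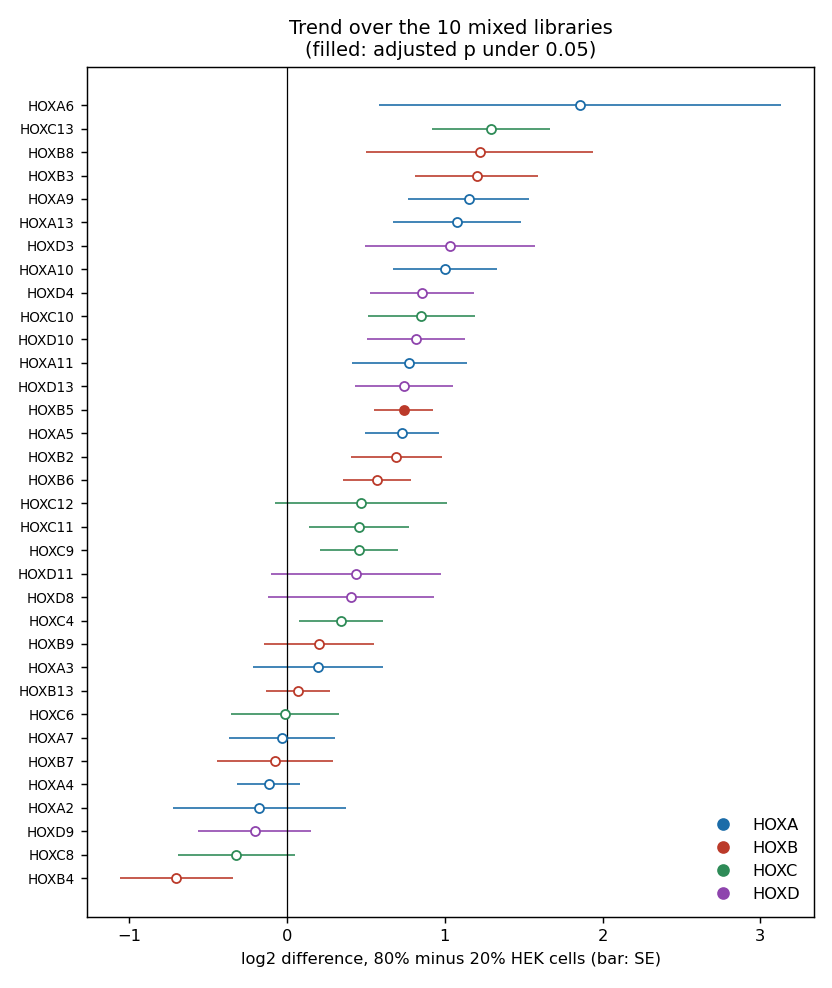
Log2 difference from 20% to 80% HEK cells for the 34 HOX genes tested, from edgeR over the 10 mixed libraries, with bars of 1 SE, colour for the cluster and a filled point for an adjusted p under 0.05. Of the points, 26 lie above 0 and 8 below, HOXB5 alone is filled, and HOXA6 at 1.86 has the widest bar (SE 1.28).

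None of the other leading genes of HEK passed the test. HOXC9 had a lowest value of 110, a median of 162 and a highest of 213 CPM over the mixed libraries (log2 0.46, SE 0.25). HOXD11 had a lowest value of 46.7, a median of 93.3 and a highest of 159 CPM, and its highest libraries were the 2 with 40% HEK cells (log2 0.44, SE 0.54, and 0.12 to 0.68 with a mixed library left out). HOXB6 ran from 23.3 to 45.8 CPM with a median of 33.0, HOXD10 from 29.1 to 67.0 CPM with a median of 56.4, and HOXC10 from 23.1 to 66.7 CPM with a median of 30.7. For HOXC9, HOXD11, HOXB6, HOXD10 and HOXC10 the 80% libraries lay above the 20% libraries.

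Of the genes highest in Jurkat, HOXB4, HOXA7 and HOXB7 had log2 differences below 0, none past the threshold. HOXB4 had 22.9 and 14.0 CPM at 80% HEK cells and 27.5 and 29.0 CPM at 20% (log2 -0.70, SE 0.36, edgeR adjusted p = 0.335), and scaled by spike-ins it stood at 0.97. Without library 1 at 80% it was -1.18. HOXA7 had a lowest value of 15.7, a median of 24.0 and a highest of 30.0 CPM over the mixed libraries, and its 80% and 20% libraries overlapped. HOXB7 had a lowest value of 48.7, a median of 76.1 and a highest of 105 CPM, also with overlap. Their log2 differences were -0.03 (SE 0.34) for HOXA7 and -0.08 (SE 0.37) for HOXB7. All 34 genes were above 0 when scaled by spike-ins, with 32 called, where 78.2% of all genes were called rising and the median of all genes was raised by 1.83.

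Counted over the 34 genes tested, both 80% libraries lay above both 20% libraries for 22 (64.7%), against 31% of all genes tested. Both 20% libraries lay above for 2 (5.88%), HOXB4 and HOXD9, against 26.1% of all genes. The other 10 overlapped. The 4 genes without enough counts for the test were HOXB1, HOXC5, HOXD1 and HOXD12.

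**Figure D4:**
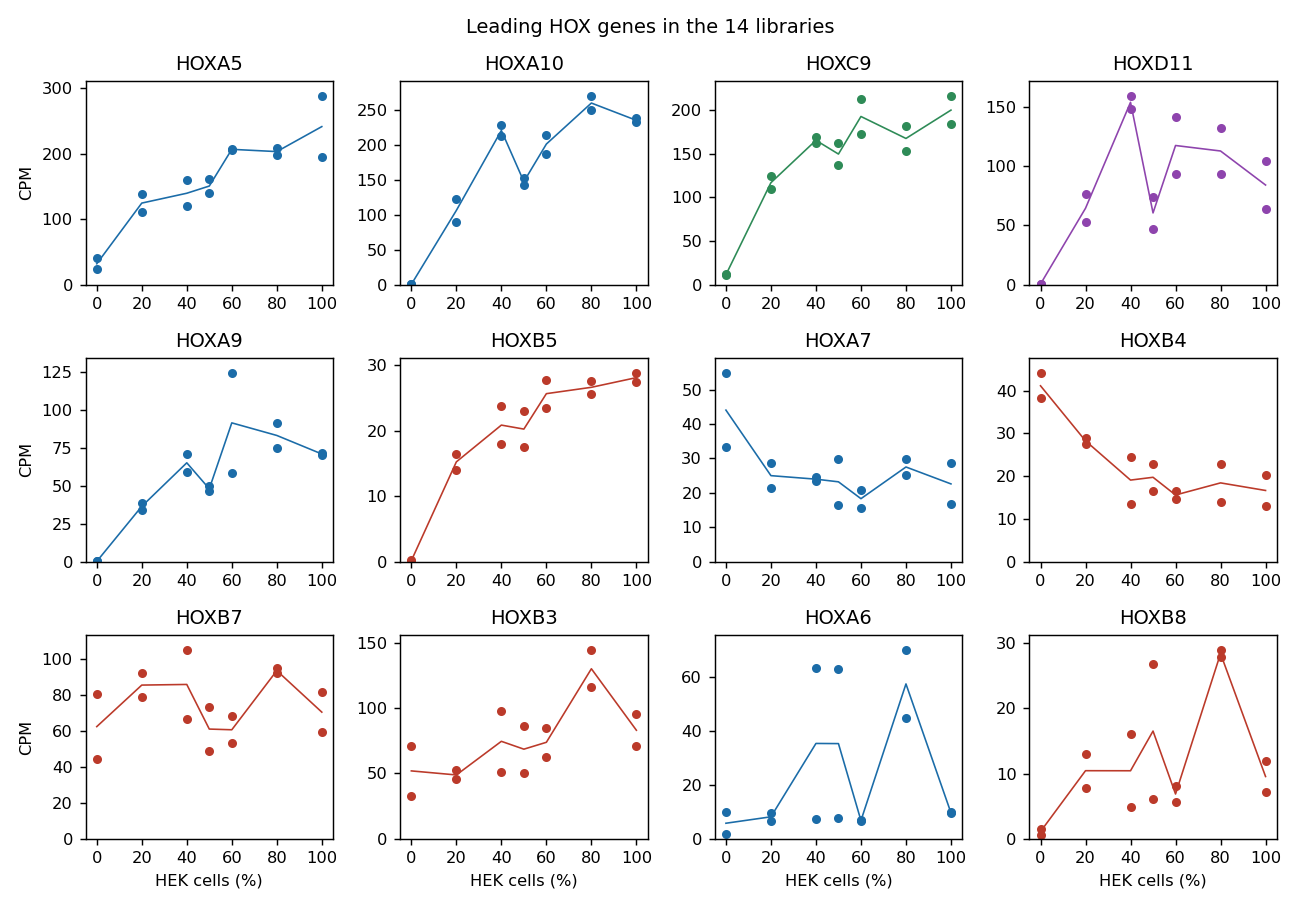
CPM of 12 HOX genes in each of the 14 libraries (points) against the percentage of HEK cells, with lines through the means of 2 libraries and colour for the cluster. HOXB5 goes from 14.0 and 16.4 CPM at 20% to 28.7 and 27.4 CPM in pure HEK, HOXB4 is highest in pure Jurkat, and HOXA6 has 4 libraries above 45.0 CPM.

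Each mixed library was also compared with the additive mixture of the pure lines, the premise of deconvolution, in which a gene's CPM is the mean of the pure lines weighted by the HEK share of RNA. Of the 38 genes, 30 had at least 5 CPM in a pure line. Of their 300 values, 280 (93.3%) lay within 2-fold of the expected CPM, against 94.0% over 12338 genes of the same level. All 10 values of 24 genes lay within 2-fold, and over all genes 74.4% did so. HOXB5, HOXB6, HOXB13, HOXC4 and HOXC9 stayed closest to it, the widest of their values being -0.39 on the log2 scale, for HOXB5 in library 1 with 20% HEK cells. The median over genes of the median log2 difference was -0.12. The HEK share of RNA was 65.3% or more in every mixed library. A gene of HEK alone that kept its pure HEK level in all of them would thus also lie within 2-fold. For such genes the range of 2-fold is no test of additive mixing. The 12338 genes also include those from which the HEK share was fitted.

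The 6 genes that left the range were looked at after their values were seen. HOXA6 was above the expected CPM by a log2 difference of 2.93 and 2.25 in the 80% libraries, 2.83 in library 1 with 50% HEK cells and 2.88 in library 1 with 40%. Its CPM there were 70.0, 45.0, 62.9 and 63.5, while the other 6 mixed libraries and all pure libraries were at 9.82 CPM or less. HOXB8, a central gene of the B cluster, was above expectation in the same 4 libraries, by 1.76, 1.60, 1.77 and 1.10. Libraries of a composition were on both sides, since HOXA6 had 7.78 CPM in the other library with 50% HEK cells and 7.22 CPM in the other with 40%. Genes more than 2-fold above expectation in 4 or more mixed libraries were 0.956% of all (118 genes).

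In the same 4 libraries HOXA5, beside HOXA6, was between -0.51 and -0.12 of the expected log2 CPM and HOXA7, on its other side, between -0.26 and 0.35. HOXB3, HOXB7, HOXA13, HOXC13 and HOXD11 were above expectation in all 4 as well, by 0.09 to 1.23. Both 80% libraries are among the 4, so that they also form the upper end of the trends of HOXA6, HOXB3 and HOXC13 given above, and their part in those trends was not tested. These libraries come from both groups of file names, the 80% libraries from 1 and the libraries with 50% and 40% from the other. HOXA3 was below expectation in all 10 libraries, with a median log2 difference of -1.22. That median was 0.07 when the HEK library with 63.3 CPM was left out of the expectation, so it rests on that library. HOXD11 was above by 1.23 and 1.09 in the 40% libraries, HOXA11 was below by 1.44 in library 2 with 50% HEK cells and by 1.01 in library 1 with 20%, and HOXD4 was below by 1.01 in library 2 with 20%.

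**Figure D5:**
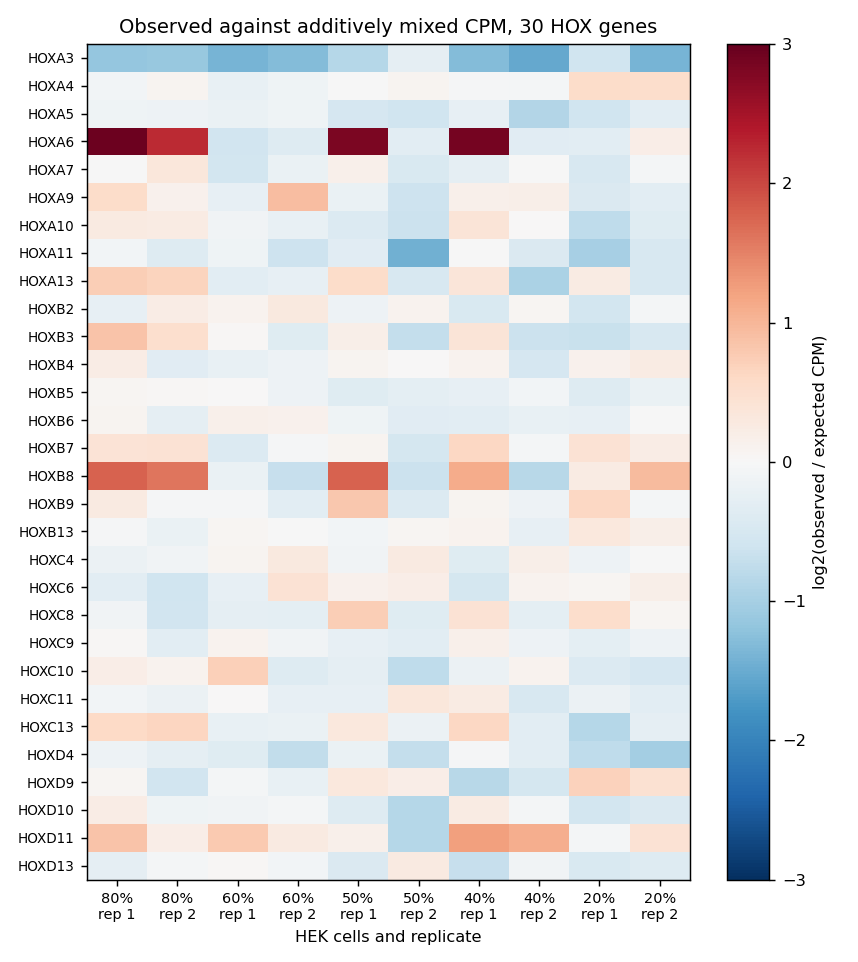
Log2 of observed over additively expected CPM for 30 HOX genes (rows) in the 10 mixed libraries (columns), red above and blue below expectation. Most cells are near 0, HOXA6 reaches 2.93 and HOXB8 reaches 1.77 in 4 libraries each, and the HOXA3 row is below 0 throughout.

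Genes that work with the HOX proteins or lie beside them were read from the same fits. Of 11 cofactor genes (PBX, MEIS, PKNOX and TGIF families), 0 rose and 0 fell over the mixed libraries. In the pure lines, as a description, 6 were called higher in HEK and 0 in Jurkat. Over all 15794 genes tested there, 24.2% were called higher in HEK and 19% in Jurkat, and nothing is read from the count. PBX3 had 93.0 CPM ± 24.5 (SD, n = 2) in HEK and 69.6 ± 6.08 in Jurkat, and MEIS2 had 71.7 ± 5.96 CPM in HEK and 7.19 ± 0.996 in Jurkat.

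Of 26 chromatin genes, which are CTCF and genes of the trithorax and Polycomb systems that keep HOX genes active or silent, 0 rose and 0 fell in the mixed libraries. In the pure lines 1 was called higher in HEK (MEN1) and 6 higher in Jurkat (KMT2A, PSIP1, EZH2, SUZ12, JARID2 and CTCF). Of all genes tested there, 24.2% were called higher in HEK and 19% in Jurkat, so nothing is read from these counts. The 3 of highest mean CPM were PSIP1, which tethers the KMT2A complex, with 603 ± 98.7 CPM in HEK and 940 ± 119 in Jurkat, CTCF, which folds chromatin into loops, with 217 ± 28.1 and 821 ± 102, and JARID2, a Polycomb partner, with 169 ± 20.1 and 736 ± 90.3. All 26 were over the floor in both lines.

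Of 24 antisense and noncoding RNAs of the clusters, 16 were over the floor in HEK and 6 in Jurkat. Over the mixed libraries 0 of 16 tested rose and 0 fell. As a description, 12 of 14 tested in the pure lines were called higher in HEK and 0 in Jurkat. The shares over all genes tested there were 24.2% and 19%. HOTAIRM1, at the 3′ end of the A cluster, had 92.3 ± 2.34 CPM (SD, n = 2) in HEK and 18.2 ± 3.87 in Jurkat. HOXA11-AS, opposite HOXA11, had 19.5 ± 1.56 CPM in HEK and at most 2 counts in a Jurkat library, and HOTAIR, in the C cluster, had 13.0 ± 0.325 CPM in HEK and at most 2 counts in a Jurkat library. An antisense gene and its partner are told apart only if the counting used the strand, which the sources used here do not state.

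Of 23 genes flanking the clusters, 19 were tested in the mixed libraries, of which 0 rose and 1 fell. Of all genes tested there, 0.528% were called rising and 5.08% falling, so nothing is read from these counts. As a description, 4 of 18 tested in the pure lines were called higher in HEK and 3 in Jurkat. The shares over all genes were 24.2% and 19%. The 1 that fell was SKAP1, a T cell receptor adaptor beside the HOXB cluster, with a log2 difference of -2.01 (SE 0.34, edgeR adjusted p = 0.00227). Its CPM was 1.16 and 0.53 in HEK, 5.87 and 7.36 at 80% HEK cells, 20.3 and 24.6 at 20% and 79.7 and 81.1 in Jurkat. Of 11 other homeobox genes (CDX, EVX, GSX, PDX1, MNX1 and GBX genes), 0 rose and 0 fell over 4 tested. MNX1 had 29.6 ± 2.58 CPM (SD, n = 2) in HEK and 10.7 ± 1.39 in Jurkat, CDX2, an upstream activator of HOX genes in the gut, had 10.1 ± 0.124 CPM in HEK and 1 count in each Jurkat library, and GBX2 had 2.57 ± 0.898 CPM in HEK and no count in Jurkat.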

How the data were processed

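RNA-seq data of 14 libraries of HEK-293T and Jurkat cells were used. Messenger RNA was captured and primed with oligo-dT, spike-ins were added, and barcoded cDNA was pooled by Actb qPCR values, which sets library depth in part. Per the labels, reads were processed with STAR 2.6.1b and RSEM 1.3.1 on GRCh38. The authors deposited expected counts, not normalized, and TPM. The annotation and the strand setting of the counting are not given in the sources used here, while the library protocol is strand-specific. Symbols and coordinates came from GENCODE release 44 by identifier, and 57754 of 58440 genes matched. The others held at most 0.327% of a library's counts. The series table was not used.

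CPM were taken over gene rows, spike-ins left out. The floor was 3 counts. Floors cover counting error only, and the Jurkat libraries, being the shallowest, set the bounds. Expected counts were rounded for edgeR 4.0.16 (TMM, filterByExpr, quasi-likelihood, adjusted p under 0.05) over the whole table, without the pure libraries for the trend. DESeq2 1.42.0 (R 4.3.3) was an alternative, and DESeq2 size factors, library totals, spike-in totals, no filter, the file name group (8 and 6 libraries), the HEK share of RNA and each library left out were others. The HEK share came from least squares on 11250 genes with at least 5 CPM. The fit was tested on simulated data. Replicates of a composition differed beyond sampling noise (chi-square per degree of freedom 18.4 to 129).

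The genes and lists were chosen with earlier results of these data known. Named in full were the 10 highest genes by TPM in HEK, the 6 highest of those over the floor in Jurkat, and those past the threshold in the mixed trend. Of each other list, those past the threshold or the 3 highest by CPM were named, and further genes were named after their values were seen. The values of 1 gene that this rule names are not reported here. Figures were drawn with matplotlib 3.10.9.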

Additional observations from a re-analysis of the deposited data

How the results depend on the processing

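The number of HOX genes called rising over the mixed libraries was 1 and became 2 with library totals, 32 with spike-in totals, 5 with DESeq2's Wald test, 0 without the filter on low counts, 2 with the HEK share of RNA as a covariate (where 1 was called falling, HOXB4), and 0 to 4 with a library left out. It was 0 without either library at 80%, 60% or 20% HEK cells, and 4 without library 1 at 40%. Apart from spike-in totals, calls over all genes were not counted for these alternatives, so their numbers are no measure of the family. HOXB5 kept its direction in all 17 alternatives, with log2 differences from 0.49 to 2.55, and lost its call in 10, with adjusted p from 0.0012 to 0.268. Scaled by spike-ins, the mixed difference of HOXB4 was 0.97 and its pure difference 2.07, both turned in sign. With the HEK share as a covariate, HOXA6 was at -0.72 and HOXB8 at -0.27. In the pure lines, the number called higher in Jurkat was 1, 0 with spike-in totals, 2 with DESeq2 or without the filter, 0 without HEK library 2 and 2 without Jurkat library 1, and 0 to 2 over all libraries left out. In TPM, the sums in HEK were 586 for HOXA, 234 for HOXB and 140 for HOXD, and the ratio of the lines was 5.07 for HOXA and 11.1 for HOXC. Per spike-in count, the ratios were 81.1, 18.8, 96.3 and 864 for HOXA to HOXD. The causes were not tested. The number over the floor in each line, the 10 highest genes by TPM and the median difference from additive mixing moved by no more than 1.5 times or their spread under each alternative run. The number over the floor in Jurkat reached that limit. With a floor of 10 counts, HOXA13, HOXB2, HOXB6, HOXB8, HOXB13 and HOXD13 were no longer over it there. Of the values of single genes and the medians, 443 kept their call or moved by no more than their error, 71 moved by more than their error, 23 gained and 10 lost a call in the same direction, and 4 turned in sign, as given. Among the first 2 of these counts, values of HOXB7, HOXA6, HOXB3 and HOXA7 in the pure lines, none of them called, also changed sign under some alternatives. No paired analysis was possible because the labels give no replicate numbers shared between compositions. The Jurkat libraries were the shallowest, and genes at or under 3 counts there were not detectable at that depth, which does not show that they are absent.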
